A study of Mus musculus with 18 samples.

Results

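Neutrophil genes were followed through 18 RNA-seq libraries of mouse colorectal tumours and colitis. The 10 members, of 54532 genes in the count tables, were S100a8, S100a9, Stfa2l1, Retnlg, Prok2, Csf3r, Fpr1, Fpr2, Trem1 and Ly6g, matched by symbol. They were chosen by name with measured expression in these libraries already known, and which of the comparisons led to the choice is not recorded. Their levels are therefore a description. The adjusted p-values beside them set a difference against the spread between libraries, and are not independent evidence about neutrophil genes in these mice.

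Neutrophils are made in the bone marrow, leave it under the control of G-CSF, the cytokine that Csf3 encodes, and enter inflamed colon along gradients of CXC chemokines and formylated bacterial peptides. There they release calprotectin, the S100a8 and S100a9 heterodimer, which is measured in stool as a marker of intestinal inflammation. Il1f9 encodes IL-36 gamma, an agonist of the IL-36 receptor that epithelial and myeloid cells make, and Il1f5 encodes the antagonist of the same receptor. In bulk RNA, fewer cells of a type and less RNA of that type per cell cannot be told apart.

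All mice were C57BL/6. Il1f9-/- mice (Il1f9 KO) had Il1f9+/+ mice as their WT, and Il1f5-/- mice (labelled Il1f5 KO) had Il1f5+/+ mice as theirs, so that each line had a WT group of its own. For tumours, mice of the 4 genotypes went through the azoxymethane (AOM) and dextran sulfate sodium (DSS) model, whose doses are not in the labels, and colorectal tumours were taken. For colitis, mice of the same 4 genotypes drank 2.5% DSS for 5 days and plain water for 2 days, and a piece of 0.5 cm of distal colon was taken. There were 3 libraries each of colitis labelled Il1f5 KO and of colitis Il1f5 WT, and 2 in each of the other 6 groups. Every group thus received DSS, and no untreated colon was compared. Age, sex and how the alleles were made are not stated. The labels do not tie a library to an animal, so that p-values measure only the spread between these libraries. A gene was called where the Benjamini-Hochberg adjusted p of edgeR's quasi-likelihood test over all genes was under 0.05.

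Library totals were 16621611 to 23776174 counts, and mitochondrial genes took 2.01 to 3.56% of them. Epithelial markers summed to 11100 to 23950 CPM in the 18 libraries (CPM, counts scaled by library size with TMM factors). Il1f9 had 9 and 1 counts in colitis Il1f9 KO against 232 and 90 in colitis Il1f9 WT, and 2 and 0 counts in tumour Il1f9 KO against 1652 and 752 in tumour Il1f9 WT. Il1f5 went against its label. It had 36, 43 and 45 counts in the colitis libraries labelled Il1f5 KO and 211 and 102 in the tumour libraries labelled Il1f5 KO. It had 0 counts in all 13 other libraries. Those were the Il1f5 WT libraries and all libraries of the Il1f9 line, whose Il1f9 WT mice are not labelled as lacking Il1f5. Whether the Il1f5 labels are exchanged, or the reads come from an altered Il1f5 allele, was not tested. Every direction drawn below from a library labelled Il1f5 KO or from Il1f5 WT carries this doubt.

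By the positions in the files, which for these 10 genes equal those of GENCODE M21 (GRCm38), S100a8 (chr3:90668978-90670035, plus strand) and S100a9 (chr3:90692632-90695721, minus strand) lie near each other. So do Fpr1 (chr17:17876471-17883940, minus strand) and Fpr2 (chr17:17887824-17893952, plus strand). Trem1 lies at chr17:48232768-48246924, Csf3r at chr4:126024550-126044440, Ly6g at chr15:75155240-75159126, Retnlg at chr16:48872621-48874496 and Stfa2l1 at chr16:36156811-36161953, all on the plus strand, and Prok2 at chr6:99711299-99726392 on the minus strand.

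The promoters of 3 members are shown, because S100a8 and S100a9 had nearly parallel levels across the libraries and Ly6g did not follow them. Each is the RefSeq window (GRCm38.p6) from 250 bases before to 50 bases after a start that RefSeq gives, 5′ to 3′ on the gene's strand. That start lies 93 bases inside the S100a8 gene as placed above and 21 bases inside Ly6g, and it is the same base for S100a9. Capitals mark matches, on either strand, to TTGCNNAA, a short form of the C/EBP motif, and to GAGGAA, a core of the PU.1 motif. C/EBP factors and PU.1 are the transcription factors best known from the making of neutrophils.

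S100a8 promoter, chr3:90668821-90669120, plus strand: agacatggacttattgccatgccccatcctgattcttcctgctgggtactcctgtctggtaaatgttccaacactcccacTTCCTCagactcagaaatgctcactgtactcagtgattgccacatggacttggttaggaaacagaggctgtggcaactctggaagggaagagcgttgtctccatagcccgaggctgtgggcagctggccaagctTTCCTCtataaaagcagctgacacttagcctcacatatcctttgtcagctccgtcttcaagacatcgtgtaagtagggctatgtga

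S100a9 promoter, chr3:90695672-90695971, minus strand: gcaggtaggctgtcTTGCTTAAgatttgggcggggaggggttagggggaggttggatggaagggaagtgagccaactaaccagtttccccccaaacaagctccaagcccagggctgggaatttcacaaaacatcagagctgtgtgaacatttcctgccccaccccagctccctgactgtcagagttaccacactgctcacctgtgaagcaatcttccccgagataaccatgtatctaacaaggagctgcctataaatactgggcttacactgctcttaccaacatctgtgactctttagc

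Ly6g promoter, chr15:75155011-75155310, plus strand: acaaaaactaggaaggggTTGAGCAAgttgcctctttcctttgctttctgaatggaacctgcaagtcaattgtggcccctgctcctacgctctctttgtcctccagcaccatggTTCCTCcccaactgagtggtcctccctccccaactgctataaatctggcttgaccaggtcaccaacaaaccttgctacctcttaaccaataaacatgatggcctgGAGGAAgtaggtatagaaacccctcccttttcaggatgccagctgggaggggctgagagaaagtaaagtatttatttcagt

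The S100a8 window held 2 PU.1 matches and no C/EBP match, the S100a9 window 1 C/EBP match and no PU.1 match, and the Ly6g window 1 C/EBP match and 2 PU.1 matches, none overlapping another. RefSeq has another Ly6g start, whose window (chr15:75155079-75155378) held no C/EBP match and 3 PU.1 matches. Over all 10 members, taking both Ly6g windows, 3 had a C/EBP match (S100a9, Ly6g and Retnlg), against 10.8% of 32851 RefSeq promoters of that length. PU.1 letters were in 6 (S100a8, Csf3r, Fpr2, Ly6g, Trem1 and Stfa2l1), against 28.3% of those promoters. These are matches of letters and not binding sites.

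Per length, S100a9 and S100a8 were the most abundant members, with median levels of 288 and 216 FPKM (the authors' values, scaled by gene length and depth) over the 18 libraries. Ly6g followed at 120 FPKM and Retnlg, a resistin-like protein secreted by neutrophils, at 41.4 FPKM. The receptors were lower, at 7.64 FPKM for the G-CSF receptor Csf3r, 4.34 FPKM for Fpr2 and 2.99 FPKM for Fpr1. Trem1, a receptor that amplifies inflammatory signals, had 3.90 FPKM. Stfa2l1, a stefin A-like cysteine protease inhibitor, had 4.36 FPKM and Prok2, the secreted prokineticin-2, 0.320 FPKM. All 10 passed the filter on low counts in the main fit of every comparison. For tumours labelled Il1f5 KO, Prok2 had values in 13 alternative fits and the other members in 14.

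The highest and the lowest of the 18 libraries were far apart. S100a8 ran from 8.34 to 1540 CPM, a range of 185-fold, S100a9 over 134-fold, Trem1 over 162-fold and Retnlg over 148-fold. Csf3r spanned 55.4-fold and Ly6g 5.35-fold. For 8 of 10 members the highest group mean was that of tumour Il1f9 WT, the exceptions being Prok2 (colitis Il1f9 WT) and Ly6g (colitis Il1f9 KO). For 9 of 10 the lowest was that of colitis Il1f9 KO. Ordered by mean S100a8, the groups were tumour Il1f9 WT (1092 CPM), tumour Il1f9 KO (413), colitis Il1f9 WT (304), tumour labelled Il1f5 KO (148), colitis labelled Il1f5 KO (132), tumour Il1f5 WT (51.3), colitis Il1f5 WT (34.4) and colitis Il1f9 KO (12.7). Neighbours in that order overlapped in their libraries except tumour Il1f9 KO with tumour Il1f9 WT, tumour labelled Il1f5 KO with colitis Il1f9 WT, and colitis Il1f9 KO with colitis Il1f5 WT.

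**Figure D1:**
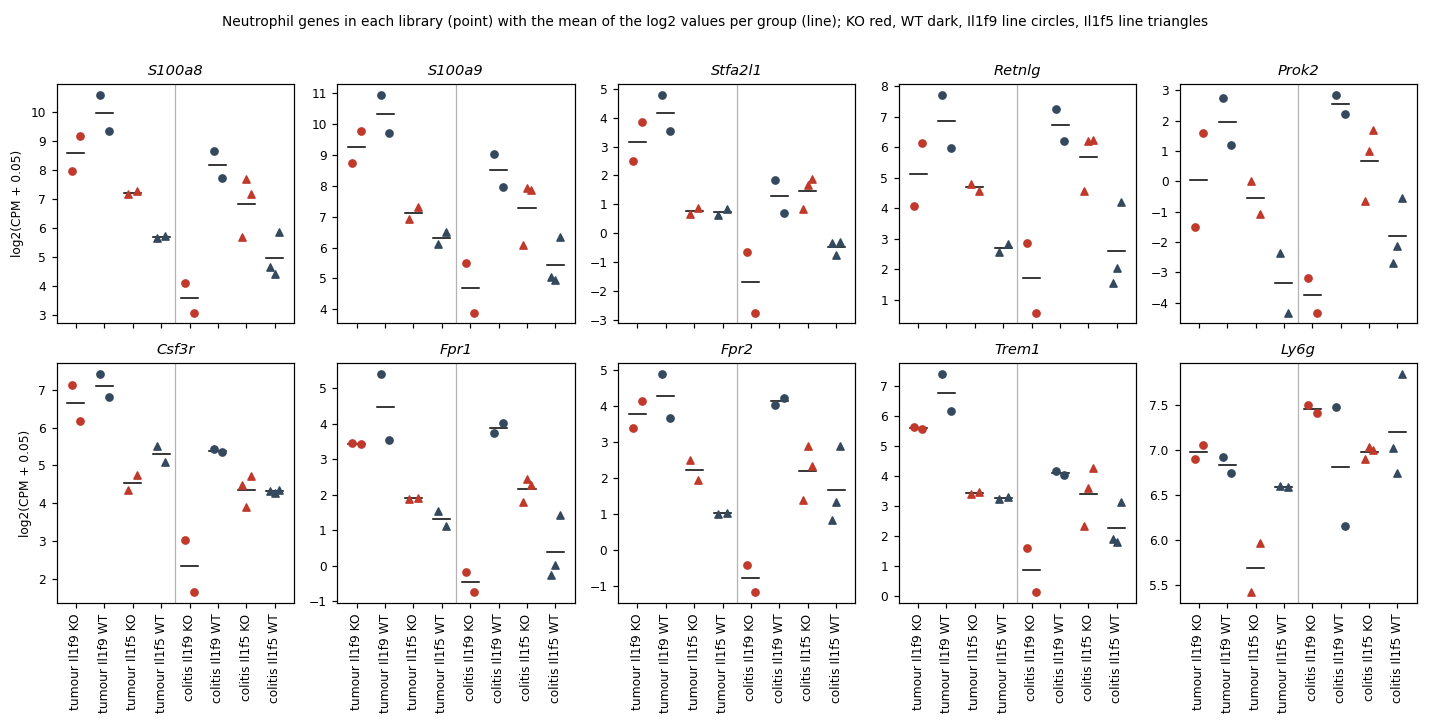
Level of each of the 10 genes in every library, as log2(CPM + 0.05), by group along the horizontal axis, with a line at the mean of the log2 values. The 2 colitis Il1f9 KO libraries lie lowest for S100a8, whose levels there were 17.0 and 8.34 CPM, while Ly6g at 181 and 170 CPM has its highest group mean there.

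In colitis, 9 of the 10 genes were lower in Il1f9 KO, namely the calprotectin pair, Retnlg, Stfa2l1 and Prok2, and the receptors Csf3r, Fpr1, Fpr2 and Trem1. The 9 fell by 2.92 to 7.46 on the log2 scale, and Ly6g was not called. S100a8 was at 17.0 and 8.34 CPM in Il1f9 KO colitis, against 399 and 209 CPM in Il1f9 WT colitis. S100a9 was at 45.2 and 14.8 CPM in KO colitis, against 523 and 252 CPM in WT colitis. Both KO libraries were below both WT libraries for each subunit. The log2 fold changes were -4.60 ± 0.91 for S100a8 (adjusted p = 0.0164) and -3.70 ± 0.95 for S100a9 (adjusted p = 0.0382, SE, n = 2 each).

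Retnlg was at 7.27 and 1.44 CPM in KO colitis, against 154 and 73.9 CPM in WT colitis. Stfa2l1 was at 0.591 and 0.0993 CPM in KO colitis, against 3.57 and 1.57 CPM in WT colitis. Prok2, a chemotactic peptide that myeloid cells make under G-CSF, had 1 count in the KO libraries together and 236 in the WT libraries. That is a ratio of 218 for WT over KO, with a 95% counting interval of 38.7 to 8629. No KO library reached a WT library for any of the 3. The log2 fold changes were -4.75 ± 1.22 for Retnlg (adjusted p = 0.0387), -2.94 ± 0.65 for Stfa2l1 (adjusted p = 0.0101) and -7.46 ± 1.19 for Prok2 (adjusted p = 0.00286).

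Among the receptors, Csf3r, through which G-CSF drives neutrophil output and survival, was at 8.10 and 3.08 CPM in KO colitis, against 43.2 and 40.5 CPM in WT colitis. Fpr1, the high-affinity receptor for formylated peptides, was at 0.828 and 0.546 CPM in KO colitis, against 13.4 and 16.1 CPM in WT colitis. Fpr2, which also binds annexin A1 and serum amyloid A, was at 0.709 and 0.397 CPM in KO colitis, against 16.4 and 18.8 CPM in WT colitis. For all 3 the WT libraries were close to each other and far above both KO libraries. Trem1 was at 2.96 and 1.04 CPM in KO colitis, against 18.02 and 16.3 CPM in WT colitis, likewise without overlap. The log2 fold changes were -2.92 ± 0.39 for Csf3r (adjusted p = 0.00176), -4.43 ± 0.53 for Fpr1 (adjusted p = 0.000556), -5.00 ± 0.83 for Fpr2 (adjusted p = 0.00535) and -3.12 ± 0.77 for Trem1 (adjusted p = 0.0272). Ly6g, a surface protein anchored by a lipid and the target of the antibody that defines mouse neutrophils, was at 181 and 170 CPM in KO colitis, against 178 and 71.2 CPM in WT colitis. Its groups overlapped (log2 fold change 0.49 ± 0.47, adjusted p = 0.513).

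The members called in this comparison were thus 9 lower and 0 higher, where 9.98% of the 18299 genes tested were called lower. Their libraries did not overlap for the same 9, against 30.6% of genes. The count of 9 was smaller without either Il1f9 WT library or either Il1f9 KO library, each of which leaves 1 library in a group. Calls over all genes moved as well with a library left out. Each of the 9 stayed lower in KO under every alternative tried. The count was 6 without the filter on low counts (5.74% of genes), 7 in a fit of the 2 groups alone (7.79%) and 7 with a replicate block (7.55%). The DESeq2 Wald test called 9 (10.6%), as did the authors' deposited table (7.35%). Of 16 alternatives, the call was lost under 11 for S100a9, 10 for Retnlg, 5 for Trem1 and 3 for S100a8. Fpr2 and Stfa2l1 each lost it under 1, without KO replicate 2. In the KO libraries Fpr2 had 12 and 8 counts and Stfa2l1 10 and 2.

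Other neutrophil genes had lower levels in Il1f9 KO colitis as well. Of the 46 genes in lists of granule proteins, of other neutrophil surface and cytosolic genes and of the phagocyte oxidase, 39 were tested, and 32 were lower and 0 higher, with a median log2 fold change of -2.77 against -0.01 over all genes. The count of 32 was smaller without KO replicate 1 or KO replicate 2, each of which leaves 1 KO library. Cxcr2, the chemokine receptor that brings neutrophils into tissue, was at 3.19 and 0.546 CPM in KO colitis, against 17.6 and 21.1 CPM in WT colitis. The integrin chains Itgb2 (-2.42 ± 0.21, adjusted p = 0.000111) and Itgam (-2.93 ± 0.35, adjusted p = 0.000836) fell, as did the oxidase subunits Cybb (-2.77 ± 0.21, adjusted p = 5.89e-05) and Ncf1 (-2.34 ± 0.25, adjusted p = 0.000273). In the list of granule proteins, which also holds the nuclear enzyme Padi4, 7 of 11 tested genes fell. Among them were Padi4 by 3.76, Mmp9 by 3.71, Lcn2 by 5.00 and Mmp8 by 6.70 on the log2 scale. Camp, the cathelicidin of specific granules, had 0 and 2 counts in KO colitis and 37 and 56 in WT colitis. It did not pass the threshold (-5.27 ± 1.92, adjusted p = 0.0932). Mpo and Elane, the azurophil granule enzymes transcribed in marrow precursors, had 0 to 8 and 0 to 3 counts per library in the whole study and were too low to compare.

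Of the ligands and partners of the members, 3 of 10 fell, Tyrobp, the adaptor through which Trem1 signals (-2.07 ± 0.18, adjusted p = 8.98e-05), Tlr4, a receptor for calprotectin (-0.93 ± 0.19, adjusted p = 0.00662), and Saa3 (-3.47 ± 0.92, adjusted p = 0.0420). Csf3 was at 5.08 and 0.993 CPM in KO colitis, against 18.7 and 33.6 CPM in WT colitis, without passing the threshold (adjusted p = 0.141). Of 9 chemoattractants and growth factors tested, 6 fell, with Tnf at -2.03, Il17a at -6.49, Il1a at -4.99 and Cxcl5 at -1.74 the 4 with the smallest p. The receptors of Prok2 were near the floor, Prokr1 with 12 and 11 counts in KO colitis against 11 and 19 in WT colitis, and Prokr2 with 0 counts in all 4 libraries.

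Markers of other cells moved in the same libraries. Macrophage and monocyte markers summed to 359 and 299 CPM in Il1f9 KO colitis, against 957 and 1279 CPM in Il1f9 WT colitis, and 11 of 14 were called lower. None of the 14 was at 0 in either group. Epithelial markers summed to 21420 and 21750 CPM in KO colitis, against 14350 and 16330 CPM in WT colitis, with 4 of 10 called higher, and B and plasma cell markers to 729 and 806 CPM in KO colitis, against 156 and 331 CPM in WT colitis, with 2 of 6 called higher. Of the members, S100a8, S100a9, Csf3r, Fpr1, Fpr2 and Trem1 are also known from monocytes. The part of the cells behind these markers in the fall of the members, and in that of the other neutrophil lists, was not tested.

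In the colitis libraries labelled Il1f5 KO, 3 of the 10 genes were called higher, Fpr1, Stfa2l1 and Prok2, where 13.7% of 18299 genes were called higher. Fpr1 was at 3.39, 5.41 and 4.75 CPM in the libraries labelled Il1f5 KO, against 0.787, 0.963 and 2.64 CPM in Il1f5 WT. Stfa2l1 was at 1.75, 3.17 and 3.59 CPM in those labelled KO, against 0.734, 0.542 and 0.753 CPM in WT. Prok2 had 0.583, 1.95 and 3.15 CPM in those labelled KO, against 0.105, 0.181 and 0.628 CPM in WT. Of the 10, Fpr1, Retnlg and Stfa2l1 did not overlap between groups, where 22.4% of genes lay higher without overlap, and for Prok2 the highest WT library exceeded the lowest KO-labelled one. The log2 fold changes were 1.58 ± 0.39 for Fpr1 (adjusted p = 0.0156), 2.05 ± 0.47 for Stfa2l1 (adjusted p = 0.0117) and 2.52 ± 0.70 for Prok2 (adjusted p = 0.0279, SE, n = 3 each).

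The calprotectin genes had log2 fold changes of 1.94 ± 0.65 for S100a8 (adjusted p = 0.0747) and 1.90 ± 0.72 for S100a9 (adjusted p = 0.101). S100a8 was at 50.7, 204 and 142 CPM in the colitis libraries labelled Il1f5 KO, against 24.8, 21.3 and 57.2 CPM in Il1f5 WT. The groups overlapped by 1 library on each side. Retnlg did not overlap, with 23.4, 73.7 and 76.0 CPM in those labelled KO against 2.89, 4.09 and 18.5 CPM in WT, and missed the threshold (2.72 ± 0.90, adjusted p = 0.0694). Csf3r (0.08 ± 0.29), Fpr2 (0.35 ± 0.55), Trem1 (1.17 ± 0.57) and Ly6g (-0.30 ± 0.38) were not called. WT replicate 3 was the highest Il1f5 WT library for all 10 genes. Without WT replicate 2 none of the 3 calls was left, and without WT replicate 1 or KO replicate 2 only that of Stfa2l1 was, whereas the DESeq2 Wald test called 6 (14.3% of genes higher). In the authors' deposited table there were 6 higher members (9.02% of genes), among them S100a8 (1.95, adjusted p = 0.0225), S100a9 (1.90, adjusted p = 0.0225) and Retnlg (2.77, adjusted p = 0.0152), beside Fpr1, Stfa2l1 and Prok2. Of the 39 other neutrophil genes tested, 6 were higher (Padi4, Msrb1, G0s2, Mrgpra2b, Wfdc21 and Rac2), near the 13.7% of all genes that were. Cybb was lower. The count of 7 called genes was 1, 1 and 2 without WT replicate 1, WT replicate 2 and KO replicate 2. Fibroblast and smooth muscle markers summed to 4175 to 5547 CPM in those labelled KO, against 2533 to 2739 CPM in WT, with 7 of 10 called higher. The macrophage sums were 537 to 623 CPM in those labelled KO, against 512 to 571 CPM in WT, and the part of these markers was not tested.

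**Figure D2:**
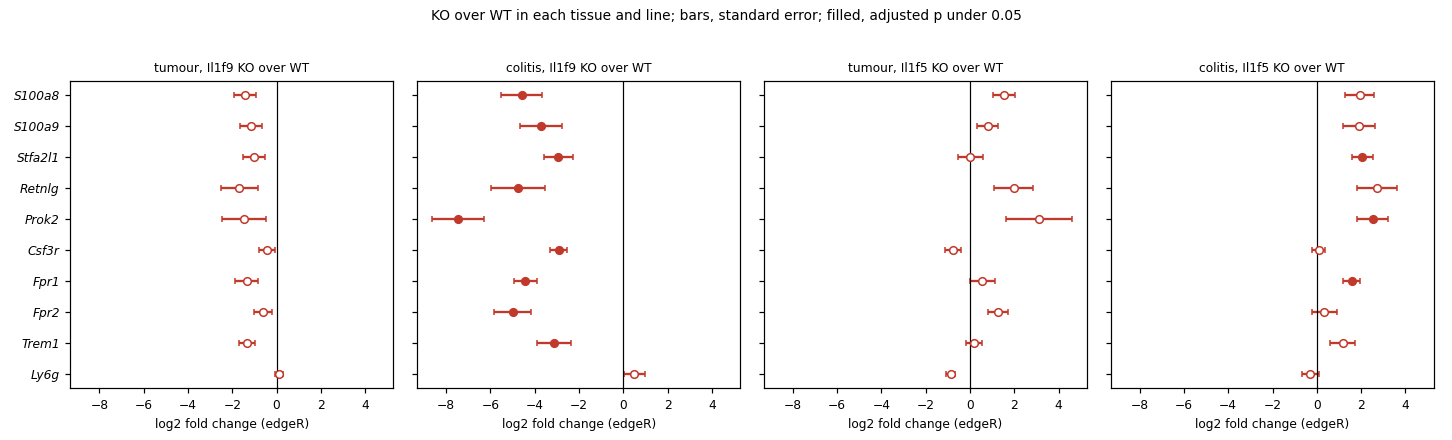
Log2 fold change of KO over WT (horizontal axis, edgeR) for each gene, one panel per tissue and line, with standard errors; filled points have an adjusted p under 0.05. In colitis Il1f9 KO the 9 genes other than Ly6g lie at -2.92 or below, and in colitis labelled Il1f5 KO the 3 filled points lie at 1.58 to 2.52.

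The difference between these colitis effects was tested as a contrast of contrasts. The effect of Il1f9 KO lay below that of the libraries labelled Il1f5 KO for 9 of 10 genes, where 12.8% of genes were called in that direction, with Ly6g the exception (0.80 ± 0.60, adjusted p = 0.367). The differences ran from -3.00 ± 0.48 on the log2 scale for Csf3r (adjusted p = 0.00379) to -9.98 ± 1.39 for Prok2 (adjusted p = 0.00173). That for S100a8 was -6.53 ± 1.11 (adjusted p = 0.00917). The count was 9 under every other setting, except that it was 8 without colitis Il1f9 WT replicate 2, 4 without colitis Il1f9 KO replicate 2, and 3 with the labels of the Il1f5 groups exchanged, a setting added after the Il1f5 counts were seen. With those labels exchanged 9.74% of genes were called lower, and of the members Csf3r (-2.85, adjusted p = 0.00535), Fpr1 (-2.85, adjusted p = 0.0140) and Fpr2 (-4.65, adjusted p = 0.0156). S100a8 then stood at -2.66 (adjusted p = 0.128), S100a9 at -1.81 (adjusted p = 0.310), Retnlg at -2.03 (adjusted p = 0.377), Trem1 at -1.95 (adjusted p = 0.189), Stfa2l1 at -0.89 (adjusted p = 0.479) and Prok2 at -4.94 (adjusted p = 0.0602). The size of these differences and 6 of the 9 calls thus rest on the Il1f5 labels as given.

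In tumours the KO effects were not called for any member by edgeR. In all 0 of 10 were called in tumour Il1f9 KO, where 0.0168% of 17859 genes were called, with 3 members at an unadjusted p under 0.05 (8.7% of genes) and 1 called by DESeq2 (1% of genes). S100a8 was at 250 and 576 CPM in tumour Il1f9 KO, against 1540 and 643 CPM in tumour Il1f9 WT. Fpr1 was at 10.8 and 10.7 CPM in KO tumours, against 42.2 and 11.7 CPM in WT tumours. Trem1 was at 49.1 and 47.9 CPM in KO tumours, against 169 and 72.1 CPM in WT tumours. These 3 had both KO libraries below both WT libraries, where 18.1% of genes did, and WT replicate 1 stood well above WT replicate 2 in each. Log2 fold changes were below 0 for 9 members, from -0.43 ± 0.36 for Csf3r to -1.68 ± 0.84 for Retnlg, and 0.12 ± 0.19 for Ly6g, with adjusted p-values of 0.411 to 0.887. S100a8 stood at -1.44 ± 0.50 (adjusted p = 0.537). Of the other neutrophil genes, 0 of 40 were called by edgeR, 11 had an unadjusted p under 0.05 in the lower direction, and 4 were called by DESeq2. Macrophage markers summed to 1381 and 1859 CPM in KO tumours, against 1679 and 1520 CPM in WT tumours.

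In the tumour libraries labelled Il1f5 KO, edgeR again called 0 of 10 members, where 0.028% of genes were called, with 3 at an unadjusted p under 0.05 (23% of genes) and 1 called by DESeq2 (8.75% of genes). S100a8 was at 144 and 153 CPM in the tumours labelled Il1f5 KO, against 50.5 and 52.1 CPM in Il1f5 WT tumours (log2 fold change 1.52 ± 0.51, adjusted p = 0.152). Ly6g was at 43.0 and 62.6 CPM in those labelled KO, against 97.3 and 96.3 CPM in WT (-0.88 ± 0.19, adjusted p = 0.0793). Prok2 had 28 counts in those labelled KO and 3 in WT, a ratio of 9.50 with a 95% counting interval of 2.93 to 48.8. All 3 had groups that did not overlap. In all, 7 members did not overlap in the higher direction, where 33.8% of genes did not, and Csf3r and Ly6g in the lower direction, where 29.9% did not. Of the other neutrophil genes, 0 of 40 were called by edgeR, 9 had an unadjusted p under 0.05 and 8 were called by DESeq2. Without the filter on low counts, more genes were called as well. The calls were then 5 lower members in tumour Il1f9 KO, where 1.05% of genes were called lower, and 5 higher and 2 lower members in the tumours labelled Il1f5 KO, where 3.93% of genes were called higher and 2.3% lower. A fit of the 2 groups alone called 3 members in the tumours labelled Il1f5 KO, where 5.94% of genes were called. In the authors' deposited table, 5 members were under an adjusted p of 0.05 for tumours labelled Il1f5 KO, S100a8 (1.53), S100a9 (0.80) and Retnlg (1.99) higher and Csf3r (-0.77) and Ly6g (-0.88) lower on the log2 scale, where that table had 5.3% of genes higher and 2.94% lower. It had 0 members for tumour Il1f9 KO, where 0.284% of genes were under that adjusted p. The difference between the 2 tumour effects was called for 0 of 10 (0.0784% of genes), with 8 at an unadjusted p under 0.05 (17.2% of genes) and 2 called by DESeq2 (3.78%).

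In tumours the WT groups of the 2 lines also differed. All 10 genes were higher in both Il1f9-line WT tumours than in both Il1f5-line WT tumours, where 37.6% of genes were, and 9 were called higher, where 16.8% of 17859 genes were. S100a8 was at 1540 and 643 CPM in Il1f9-line WT tumours, against 50.5 and 52.1 CPM in Il1f5-line WT tumours (4.43 ± 0.57, adjusted p = 0.00379). Trem1 was at 169 and 72.1 CPM in Il1f9-line WT, against 9.42 and 9.76 CPM in Il1f5-line WT (3.67 ± 0.38, adjusted p = 0.00123). Csf3r was at 170 and 112 CPM in Il1f9-line WT, against 45.5 and 34.2 CPM in Il1f5-line WT (1.85 ± 0.37, adjusted p = 0.0114). The receptor for G-CSF moved least of the 9. Prok2 had 147 counts in Il1f9-line WT and 3 in Il1f5-line WT, a ratio of 59.2 with a 95% counting interval of 19.9 to 290. Ly6g was at 122 and 107 CPM in Il1f9-line WT, against 97.3 and 96.3 CPM in Il1f5-line WT, a log2 fold change of 0.26 ± 0.19 (adjusted p = 0.324). With the Il1f5 labels exchanged 8 members were called higher, where 15.5% of genes were, Ly6g (1.14) among them and Retnlg and Prok2 not.

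Of 40 other neutrophil genes tested, 29 were higher in Il1f9-line WT tumours and Itgb2l alone was lower, with a median of 2.18 on the log2 scale against 0.02 over all genes, and the 30 calls were 19 without Il1f5 WT replicate 2. Cxcr2 was at 84.6 and 45.9 CPM in Il1f9-line WT tumours, against 10.0 and 7.66 CPM in Il1f5-line WT tumours (2.90 ± 0.35, adjusted p = 0.00155). Wfdc17 (3.64 ± 0.26), Clec4d (2.89 ± 0.33) and Mmp9 (2.32 ± 0.25) were among the others that rose. Of 11 chemoattractants and growth factors, 9 were higher and 0 lower, with Cxcl5 at 2.88, Il17a at 3.83, Cxcl2 at 4.41 and Cxcl3 at 4.14. Of the stefin A paralogs, whose near-identical sequences can share reads with Stfa2l1, Gm5483 (4.97), Stfa2 (4.97) and Stfa3 (4.72) were higher. Squamous epithelium markers, listed because stressed keratinocytes also make S100a8 and S100a9, summed to 380 and 470 CPM in Il1f9-line WT tumours, against 133 and 850 CPM in Il1f5-line WT tumours. Macrophage markers summed to 1679 and 1520 CPM in Il1f9-line WT, against 1011 and 608 CPM in Il1f5-line WT, with 2 of 13 called higher, and epithelial markers had 6 of 10 called higher and 1 lower. The tumour libraries of the 2 lines were deposited in separate tables and carry no batch label, so that line and any batch cannot be told apart.

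In colitis the same contrast of WT groups had 2 members higher, Fpr1 and Prok2, where 3.25% of 18299 genes were called higher. For 9 members both Il1f9-line WT libraries lay above all 3 Il1f5-line WT libraries, where 22.6% of genes did. S100a8 was at 399 and 209 CPM in Il1f9-line WT colitis, against 24.8, 21.3 and 57.2 CPM in Il1f5-line WT colitis (3.13 ± 0.72, adjusted p = 0.0587). Fpr1 was at 13.4 and 16.1 CPM in Il1f9-line WT, against 0.787, 0.963 and 2.64 CPM in Il1f5-line WT (3.29 ± 0.41, adjusted p = 0.00382). Ly6g overlapped, at -0.32 ± 0.43 (adjusted p = 0.684). The count of 2 was 1 without Il1f5 WT replicate 1, Il1f5 WT replicate 2 or Il1f9 WT replicate 2, and 4 without either Il1f9 KO library. It was 5 in a fit of the 2 groups alone (5.05% of genes higher), 8 with the DESeq2 Wald test (6.7%), 6 in the authors' deposited table (3.08%) and 1, Fpr1, with the Il1f5 labels exchanged (2.98%). Macrophage markers summed to 957 and 1279 CPM in Il1f9-line WT, against 512 to 571 CPM in Il1f5-line WT, with 10 of 14 called higher.

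**Figure D3:**
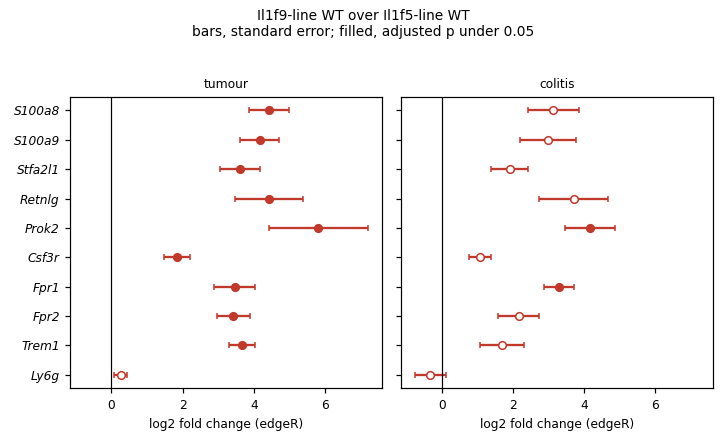
Log2 fold change of Il1f9-line WT over Il1f5-line WT (horizontal axis, edgeR) with standard errors, in tumour and colitis; filled points have an adjusted p under 0.05. In tumours 9 points are filled, at 1.85 to 5.81, and in colitis those of Fpr1 (3.29) and Prok2 (4.15).

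Set against colitis over the 4 genotype groups, tumours had 7 members higher, where 36.5% of 19514 genes were, and Ly6g lower, where 36.1% were. The rises were 2.07 ± 0.30 for Stfa2l1, 2.03 ± 0.30 for Trem1, 1.90 ± 0.35 for S100a8, 1.80 ± 0.19 for Csf3r, 1.66 ± 0.37 for S100a9, 1.31 ± 0.27 for Fpr1 and 0.97 ± 0.32 for Fpr2. Ly6g fell by 0.64 ± 0.18 (adjusted p = 0.00764). Retnlg (0.52 ± 0.50) and Prok2 (0.43 ± 0.77) were not called. Tissue and deposited table coincide, so that tissue and any batch cannot be told apart here either.

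The contrast was also fitted within each genotype group. Within Il1f9 KO alone, 9 members were higher in tumours, where 26.2% of genes were, by 3.37 ± 1.16 for Retnlg up to 5.62 ± 1.68 for Prok2. S100a8 was at 250 and 576 CPM in Il1f9 KO tumours, against 17.0 and 8.34 CPM in Il1f9 KO colitis (5.03 ± 0.85, adjusted p = 0.000538). Within Il1f9 WT, S100a8 (1.84 ± 0.73), Csf3r (1.76 ± 0.40), Trem1 (2.81 ± 0.61) and Stfa2l1 (2.93 ± 0.58) were higher, where 28.6% of genes were. Within Il1f5 WT only Csf3r was called (1.01 ± 0.36, adjusted p = 0.0383), and it was higher, as were 20% of genes. Within the group labelled Il1f5 KO only Ly6g was called, and it was lower (-1.26 ± 0.36, adjusted p = 0.0106), as were 27.3% of genes. There S100a8 was at 144 and 153 CPM in tumours, against 50.7, 204 and 142 CPM in colitis (0.16 ± 0.65, adjusted p = 0.848). Squamous epithelium markers summed to 109 to 850 CPM in tumours, against 6.54 to 12.8 CPM in colitis, and 10 of 11 were called higher, while fibroblast and smooth muscle markers were lower for 9 of 10. The part of these markers in the tissue contrast was not tested.

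**Figure D4:**
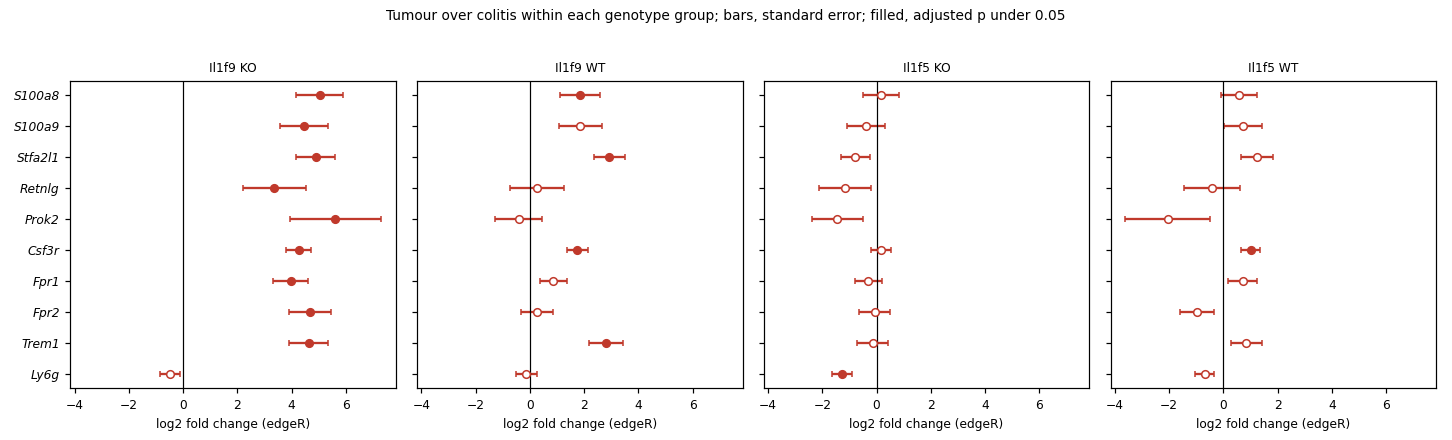
Log2 fold change of tumour over colitis (horizontal axis, edgeR) with standard errors, one panel per genotype group; filled points have an adjusted p under 0.05. In Il1f9 KO 9 points are filled, at 3.37 to 5.62, and in the group labelled Il1f5 KO only Ly6g is, at -1.26.

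Whether a KO effect differed between tissues was tested within each line. In the Il1f9 line the effect in tumours lay above that in colitis for Csf3r (2.51 ± 0.58, adjusted p = 0.0454) and Fpr2 (4.41 ± 0.98, adjusted p = 0.0379), where 1.65% of genes were called in that direction. The other 8 ran from -0.35 ± 0.54 for Ly6g to 6.03 ± 1.96 for Prok2 and were not called, although 5 of these 8 had an unadjusted p under 0.05. With the 2 called members that made 7 of 10, where 19.4% of genes had one. This count of 2 was 0 without colitis Il1f5 WT replicate 2, colitis Il1f9 WT replicate 1 or 2, colitis Il1f9 KO replicate 2, tumour Il1f5 WT replicate 1 or 2, or tumour Il1f9 WT replicate 2. It was 1 without colitis Il1f5 WT replicate 1, colitis labelled Il1f5 KO replicate 1, colitis Il1f9 KO replicate 1, tumour labelled Il1f5 KO replicate 1 or 2, or tumour Il1f9 KO replicate 2. In the Il1f5 line edgeR called 0 of 10, where 18.1% of genes were called in either direction, with 1 member at an unadjusted p under 0.05 (33.4% of genes) and 1 called by DESeq2 (23.6%).

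The 10 genes were not one block. There were 1.12 to 3.53 FPKM of S100a9 for each FPKM of S100a8. The ratio was highest in the colitis Il1f9 KO libraries, at 3.53 and 2.37, where both genes had their lowest group means, and lowest in the tumours labelled Il1f5 KO, at 1.12 and 1.37. As a description over libraries that share groups, each member's log2 level was set against the mean of the other 9. Pearson's r in the 8 tumour and the 10 colitis libraries was 0.96 and 0.98 for S100a8 and 0.99 and 0.98 for S100a9, and it was 0.79 or more in tumours and 0.80 or more in colitis for all members other than Ly6g. For Ly6g it was 0.54 in tumours and -0.28 in colitis.

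**Figure D5:**
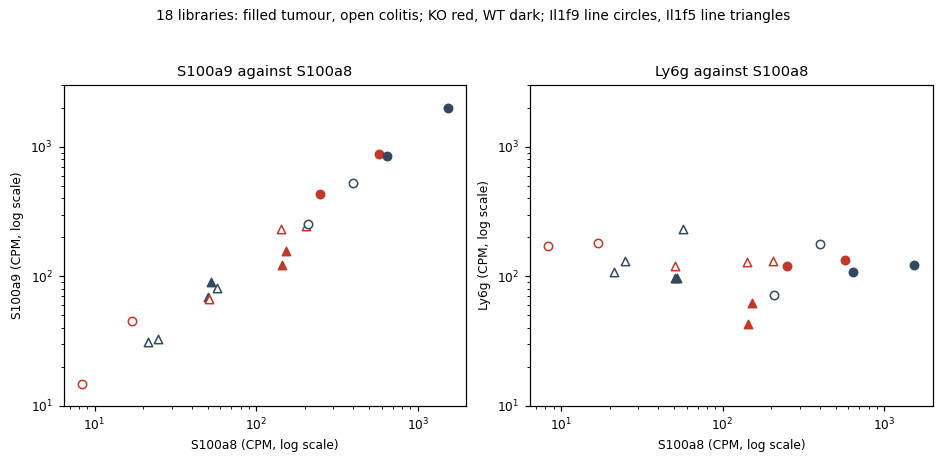
S100a9 (left) and Ly6g (right) against S100a8 in the 18 libraries, in CPM on log axes; filled symbols are tumours and open symbols colitis. S100a9 follows S100a8 over its whole range of 8.34 to 1540 CPM, and Ly6g stays between 43.0 and 230 CPM.

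Of 12681 genes with a mean log2 CPM of at least 1, the 8 whose levels were most like the mean of the members in both tissues were Mcemp1 (mean r of 0.98), Mmp9, Adam8, Samsn1, Clec4d, Ifitm6, Alox5ap and Pygl (0.97). By rank correlation, Mmp9, Adam8, Ifitm6 and Alox5ap were again among the first 8. The 8 genes most like Ly6g, looked up after its values were seen, were others, with Ccng2 (0.91), Btbd10 (0.86), Med4 (0.86), Clca4a (0.86), Prkx (0.85), Herc4 (0.85), Igsf5 (0.85) and Krt20 (0.84). Of these, Krt20 is in the list of epithelial markers used here. Which cells the Ly6g reads came from was not tested. Reads of Fpr2 could be shared with Fpr3, whose exons overlap it on the same strand, but Fpr3 had at most 12 counts in a library. Trem1 and Prok2 overlap genes on the opposite strand without a shared exon.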

How the data were processed

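RNA-seq of 18 mouse libraries was deposited as 3 tables, one for colitis and one per line for tumours. Per the submitters' processing notes, Trim Galore 0.6.4, HISAT2 2.0.5 and featureCounts 2.0.0 were used. The sources used here do not give the build. The deposited counts are raw reads per gene, per the file headers. The deposited FPKM values were scaled by the authors to gene length and depth, per the file headers. The authors' log2 fold changes and adjusted p-values, per the file headers, were used only where named. Whether counting used strand is not stated, so that antisense genes and near-identical paralogs may share reads with the members.

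Tables were joined by gene identifier. Positions equalled those of GENCODE M21 for the 10 members and for 53499 of all 54532 genes, and promoters came from RefSeq GRCm38.p6. Counts were fitted with edgeR 4.0.16 (R 4.3.3; TMM, filterByExpr by group, robust quasi-likelihood, group means), per tissue for KO and line contrasts and over all 18 libraries for tissue contrasts, with Benjamini-Hochberg adjustment over all genes and 0.05 as the threshold. The SE of a fold change was its size divided by the square root of F. CPM used TMM factors over the 18 libraries, and the figure of levels adds 0.05 CPM before the log2. Scripts were tested on simulated counts. Of simulated 2-fold changes, 56% were recovered for colitis labelled Il1f5 KO, 45% for colitis Il1f9 KO, 27% for tumours labelled Il1f5 KO and 25% for tumour Il1f9 KO. For 4-fold changes these were 83%, 70%, 68% and 60%, in the same order. The share of calls that fell on unchanged genes was 9.15%, 3.36%, 11.2% and 10.5%. Totals of 16621611 to 23776174 counts mean that counting intervals, exact for a ratio of 2 counts, cover counting error only. No 2 libraries of a group agreed within sampling noise.

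The members and lists were chosen with earlier results of these data known. Beside the members, the plan was to name per comparison up to 4 called genes with the smallest p from each list. The lists were those of neutrophil genes, ligands and chemoattractants. Csf3, Prokr1, Prokr2, Tyrobp, Mpo, Elane, Cxcr2, Lcn2 and Camp were fixed to be named. The text names listed genes for some comparisons only, and the full set of fixed genes only for colitis Il1f9 KO. Genes most like the members were ranked by Pearson's r with the mean standardised log2 CPM of the members, within colitis and within tumours, leaving out symbols that begin with Gm or end in Rik. Alternatives were DESeq2 1.42.0 (size factors and Wald test), no filter, other sets of libraries, the Il1f5 labels exchanged (added after seeing the data), a replicate block, a fold threshold and each library left out. Same-numbered KO and WT libraries did not deviate together (r of 0.01, -0.16 and -0.16 in the Il1f5 line in colitis, -0.13 in the Il1f9 line in colitis, -0.14 and -0.24 in tumours). With 2 libraries in a group the deviations mirror each other, and crossing the numbers turns the sign of r. For such groups the check cannot show that libraries were unpaired. The numbers were not taken as pairs.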

Additional observations from a re-analysis of the deposited data

Results flagged for a closer look

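In colitis, the effect of Il1f9 KO differed from that of the libraries labelled Il1f5 KO for 9 members by the test of the difference itself, edgeR's contrast of contrasts. The differences on the log2 scale, Il1f9 line minus Il1f5 line, were -6.53 for S100a8, -5.60 for S100a9, -4.98 for Stfa2l1, -7.47 for Retnlg and -9.98 for Prok2. Among the receptors they were -3.00 for Csf3r, -6.01 for Fpr1, -5.35 for Fpr2 and -4.30 for Trem1. All 9 were called, with adjusted p-values of 0.000569 to 0.0186, and 4 were without colitis Il1f9 KO replicate 2. The Il1f5 counts go against the labels of the Il1f5 side. With the labels of the 2 Il1f5 groups exchanged, the differences were -2.66 for S100a8, -1.81 for S100a9, -0.89 for Stfa2l1, -2.03 for Retnlg, -4.94 for Prok2, -2.85 for Csf3r, -2.85 for Fpr1, -4.65 for Fpr2 and -1.95 for Trem1, and the calls left were Csf3r, Fpr1 and Fpr2.

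In the Il1f9 line, the KO effect in tumours lay above that in colitis for Csf3r, by 2.51, and for Fpr2, by 4.41 on the log2 scale, again by the test of the difference. Neither call held under every library left out.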

How the results depend on the processing

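Counts of members called moved by over 1.5 times under these settings. With the DESeq2 Wald test they were 6 in place of 3 (colitis labelled Il1f5 KO), 8 in place of 2 (WT lines in colitis), 1 in place of 0 (tumours labelled Il1f5 KO), 1 in place of 0 (tumour Il1f9 KO), 2 in place of 0 (difference between tumour KO effects), 1 in place of 0 (tumour minus colitis, Il1f5 line) and 5 in place of 2 (Il1f9 line, 8.32% of all genes called). Without the filter on low counts they were 7 for tumours labelled Il1f5 KO, 5 for tumour Il1f9 KO, 8 for the difference between tumour KO effects (4.36% of all genes called), 5 for tumour minus colitis in the Il1f5 line (12%) and 9 in the Il1f9 line (5.25%). With only the groups compared they were 5 (WT lines in colitis) and 3 (tumours labelled Il1f5 KO). With the labels of the Il1f5 groups exchanged, a setting chosen after seeing the data, they were 3 in place of 9 (difference in colitis) and 1 in place of 2 (WT lines in colitis). The 8 calls of tumour over colitis were 1 in the group labelled Il1f5 KO alone, 1 in Il1f5 WT alone and 4 in Il1f9 WT alone. The cause was not tested.

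With 1 library left out, the counts ran from 0 to 4 (colitis labelled Il1f5 KO), 3 to 9 (colitis Il1f9 KO), 1 to 4 (WT lines in colitis), 4 to 9 (difference in colitis), 0 to 1 (each tumour KO effect), 6 to 9 (WT lines in tumours), 0 to 0 (difference in tumours), 8 to 8 (tumour over colitis), 0 to 0 (tumour minus colitis, Il1f5 line) and 0 to 2 (Il1f9 line). Calls over all genes moved with a library left out in each of these comparisons too, so that the ranges alone show nothing particular to the members. With the replicate block, 7 of 9 calls were left in colitis Il1f9 KO, without S100a9 and Retnlg, and 8 of 9 for the WT lines in tumours, without Retnlg, while Fpr2 was added to the WT lines in colitis (3 calls). In colitis of the Il1f5 line, 1 of 3 libraries labelled KO correlated best with its own number.

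Signs turned for uncalled members when 1 library was left out. In colitis labelled Il1f5 KO the ranges were -0.043 to 1.26 for Fpr2, -0.51 to 0.092 for Ly6g and -0.090 to 0.28 for Csf3r. Ly6g ran from -0.028 to 1.30 in colitis Il1f9 KO, from -1.14 to 0.19 between WT lines in colitis and from -1.17 to 0.16 for tumour minus colitis in the Il1f9 line. Stfa2l1 ran from -0.10 to 0.15 in tumours labelled Il1f5 KO and was -0.01664 with DESeq2 size factors, -0.01632 with its Wald test and -0.02115 with only the groups compared. Fpr2 ran from -1.11 to 0.13 in tumour Il1f9 KO, and Csf3r from -0.25 to 0.75 for the difference in tumours. Prok2 ran from -0.46 to 1.02 for tumour over colitis and from -0.56 to 4.19, and S100a8 from -0.99 to 0.049, for tumour minus colitis in the Il1f5 line.

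Tumour over colitis turned negative in the group labelled Il1f5 KO alone for S100a9 (-0.38), Fpr1 (-0.30), Fpr2 (-0.071), Trem1 (-0.15), Retnlg (-1.16), Stfa2l1 (-0.78) and Prok2 (-1.44), in Il1f5 WT alone for Fpr2 (-0.98), Retnlg (-0.41) and Prok2 (-2.04), and in Il1f9 WT alone for Prok2 (-0.41). With the Il1f5 labels exchanged, Stfa2l1 turned to -0.14 between WT lines in colitis, and the difference in tumours to 0.08397 for S100a8, -1.20 for Csf3r, 0.62 for Fpr2, -0.76 for Ly6g, 0.30 for Retnlg and 1.65 for Prok2. Of 1260 values of single members with a library left out, 1151 kept direction and side, 75 lost a call, 16 gained one and 18 turned sign, and of 659 under other settings 544, 32, 62 and 21 did so. Depth limits Prok2 most, with 1 count over the colitis Il1f9 KO libraries and 3 over the tumour Il1f5 WT libraries.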

Other observations

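Mast cell markers, a list fixed beside those of neutrophils, were higher in tumours than in colitis for 7 of 8 genes and lower for 1. Of 19514 genes, 36.5% were called higher and 36.1% lower in this contrast, where tissue and any batch cannot be told apart. The summed level of the mast cell markers was 117 to 624 CPM in tumours, against 51.9 to 81.9 CPM in colitis. The highest sums were in the tumours labelled Il1f5 KO, at 359 and 624 CPM, against 145 and 128 CPM in Il1f5 WT tumours, whereas 8 of the 10 members had their highest group mean in Il1f9-line WT tumours. Eosinophil markers summed to 1.89 to 9.99 CPM in tumours, against 5.97 to 21.1 CPM in colitis, and T and NK cell markers to 20.1 to 54.6 CPM in tumours, against 17.2 to 43.2 CPM in colitis.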
